A study of Homo sapiens with 3 samples.

Results

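The genes described here are 38 genes of mitosis and of the passage from G2 into M phase, out of 52992 genes summed from the deposited transcript tables. They were taken by name, as all transcripts of the listed Ensembl genes, which gave 295 of the 196354 transcripts in each table. RNA came from TE5, an established line of human esophageal squamous cell carcinoma. Cells were transfected with shKLF5, a short hairpin RNA against the transcription factor KLF5 (2 libraries), or with scramble, a hairpin without that target (1 library), and RNA was taken 48 h later. All 3 libraries come from this 1 line, and the labels number the shKLF5 libraries 1 and 2 but do not tell if each is its own hairpin, culture or preparation. The p-values therefore measure only the spread within this shKLF5 pair, possibly a technical one, and take the lone scramble library to be equally variable.

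Entry into mitosis is driven by CDK1 bound to cyclin A or B. Its activity is released by CDC25 phosphatases, reinforced by polo and Aurora kinases, and ended when the anaphase-promoting complex (APC/C) with CDC20 marks cyclin B and securin for destruction. Kinetochores tie chromosomes to spindle microtubules and hold back anaphase through the spindle checkpoint, while kinesin motors shape the spindle and the midzone where the cell divides. Transcripts of these proteins accumulate late in the cell cycle. They are repressed in resting cells by the DREAM complex and switched on in G2 by B-MYB, FOXM1 and NF-Y, in part through the promoter elements called CHR and CCAAT. In bulk RNA, fewer cells in G2 and M phase and less of a transcript per cell cannot be told apart.

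The libraries held between 32720563 and 33544752 estimated counts, of which 31.1% and 34.7% were mitochondrially encoded in shKLF5 libraries 1 and 2 and 38.1% in scramble. Genes with at least 10 counts numbered 19304 and 19422 in shKLF5 libraries 1 and 2, against 16920 in scramble. KLF5 had 37.2 and 44.0 CPM (counts scaled to library size, here with TMM factors) in the shKLF5 libraries, against 316 CPM in scramble. All 5 squamous markers examined (KRT5, KRT6A, KRT17, TP63 and DSG3) had at least 1 TPM (transcript abundance corrected for length and library size) in every library, and their summed level was 876.5 and 454 TPM in shKLF5 libraries 1 and 2, against 3302 TPM in scramble. The 6 leukocyte markers summed to 2.36 and 3.12 TPM, against 0.527 TPM in scramble, and the 6 fibroblast markers to 26.3 and 15.4 TPM, against 16.7 TPM in scramble. The 3 endothelial markers measured summed to 1.09 and 1.36 TPM, against 0.324 TPM in scramble, and the 3 markers of simple epithelium to 144.6 and 138.6 TPM, against 173 TPM in scramble. The part of these shares, gene numbers and markers in the results was not tested.

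After TMM scaling most mitotic genes had lower values in the shKLF5 pair than in scramble, by a modest amount. Of the 38 genes, 35 were lower in both, 0 were higher in both and 3 (CDC25C, AURKB and UBE2C) lay on opposite sides of scramble. Among all 20629 genes tested, 36.5% were lower and 37.9% higher in both libraries. Among the 10376 protein-coding genes with a mean of at least 5 CPM, 51.8% were lower in both and 2344 genes were higher in both. The median log2 fold change of the 38 genes was -0.54, with -0.69 in library 1 and -0.52 in library 2, beside 0.04 over all genes tested and -0.17 over the abundant protein-coding genes. The genes ranged from -1.64 for CENPE to 0.24 for CDC25C. All 38 passed the filter on low counts, with between 265 and 10425 counts in a library.

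No mitotic gene passed the test. By edgeR's quasi-likelihood F test 0 of the 38 had a Benjamini-Hochberg adjusted p under 0.05, beside 0% of all genes tested, and the adjusted p of the 38 ran from 0.359 to 0.939. KLF5, the targeted gene, did not pass either, with a log2 fold change of -2.96 and an edgeR adjusted p of 0.182. At an unadjusted p under 0.05, 10 of the 38 were lower and 0 higher. Of all 20629 genes tested, 722 (3.5%) were lower and 1171 higher at that p. Of the 10376 abundant protein-coding genes, 528 were lower and 217 higher. DESeq2, edgeR's legacy fit and both limma fits also passed 0 of the 38, while DESeq2 called 0.562% and the legacy fit 0.102% of all genes. The 10 genes were CENPE, DLGAP5, TOP2A, MKI67, HMMR, CCNB1, KIF4A, KIF20A, CENPF and NDC80, and their 95% confidence intervals excluded 0.

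How far the genes lie below scramble depends on the scaling. TMM factors were 1.11 and 1.1 for the shKLF5 libraries and 0.82 for scramble. Scaled by library size only, all genes had a median of 0.47 and the mitotic genes one of -0.11, and 20 of the 38 were lower in both libraries, where 12.5% of all genes were. By deposited TPM, 20 of the 38 were lower in the shKLF5 pair, 8 were higher in both and 10 lay on either side of scramble, where 11.3% of all genes tested were lower in both. Set against the median of all genes tested in each library, 36 of the 38 genes were lower in both shKLF5 libraries after TMM, where 37.3% of all genes were. Against the median of the abundant protein-coding genes 32 of the 38 were lower in both, where 36.2% of those genes were.

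**Figure D1:**
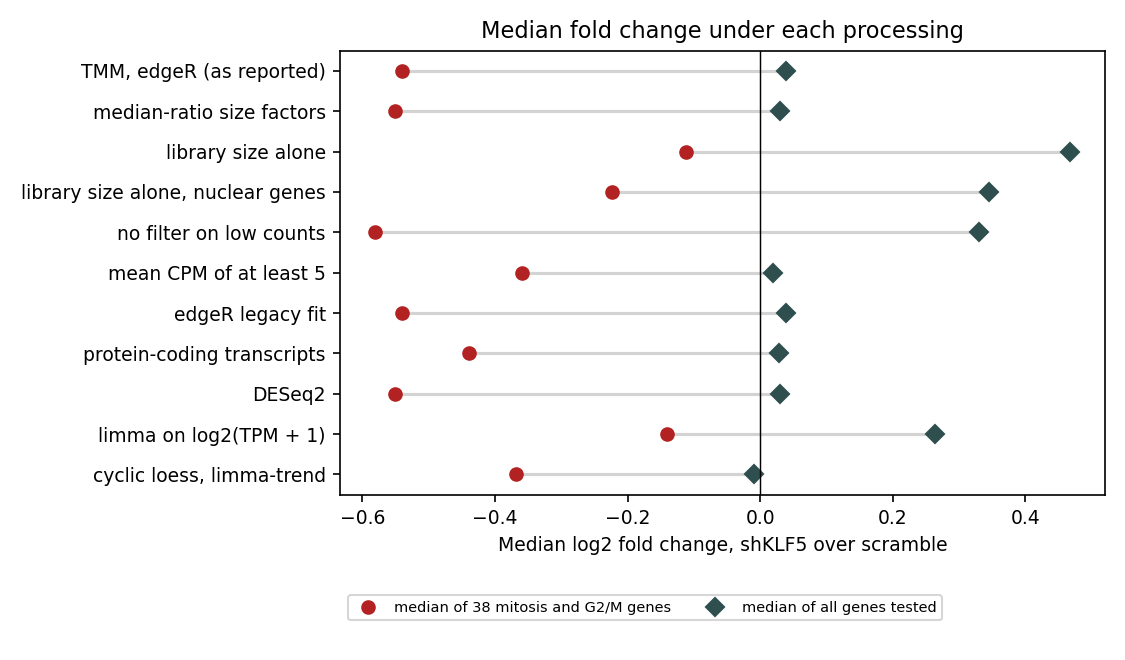
Median log2 fold change, shKLF5 over scramble, of the 38 mitosis and G2/M genes (circles) and of all genes tested (diamonds) under each processing, joined by a line. The mitotic median lies below the median of all genes in every row, while its own value runs from -0.58 with no filter to -0.11 with library size alone.

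**Figure D2:**
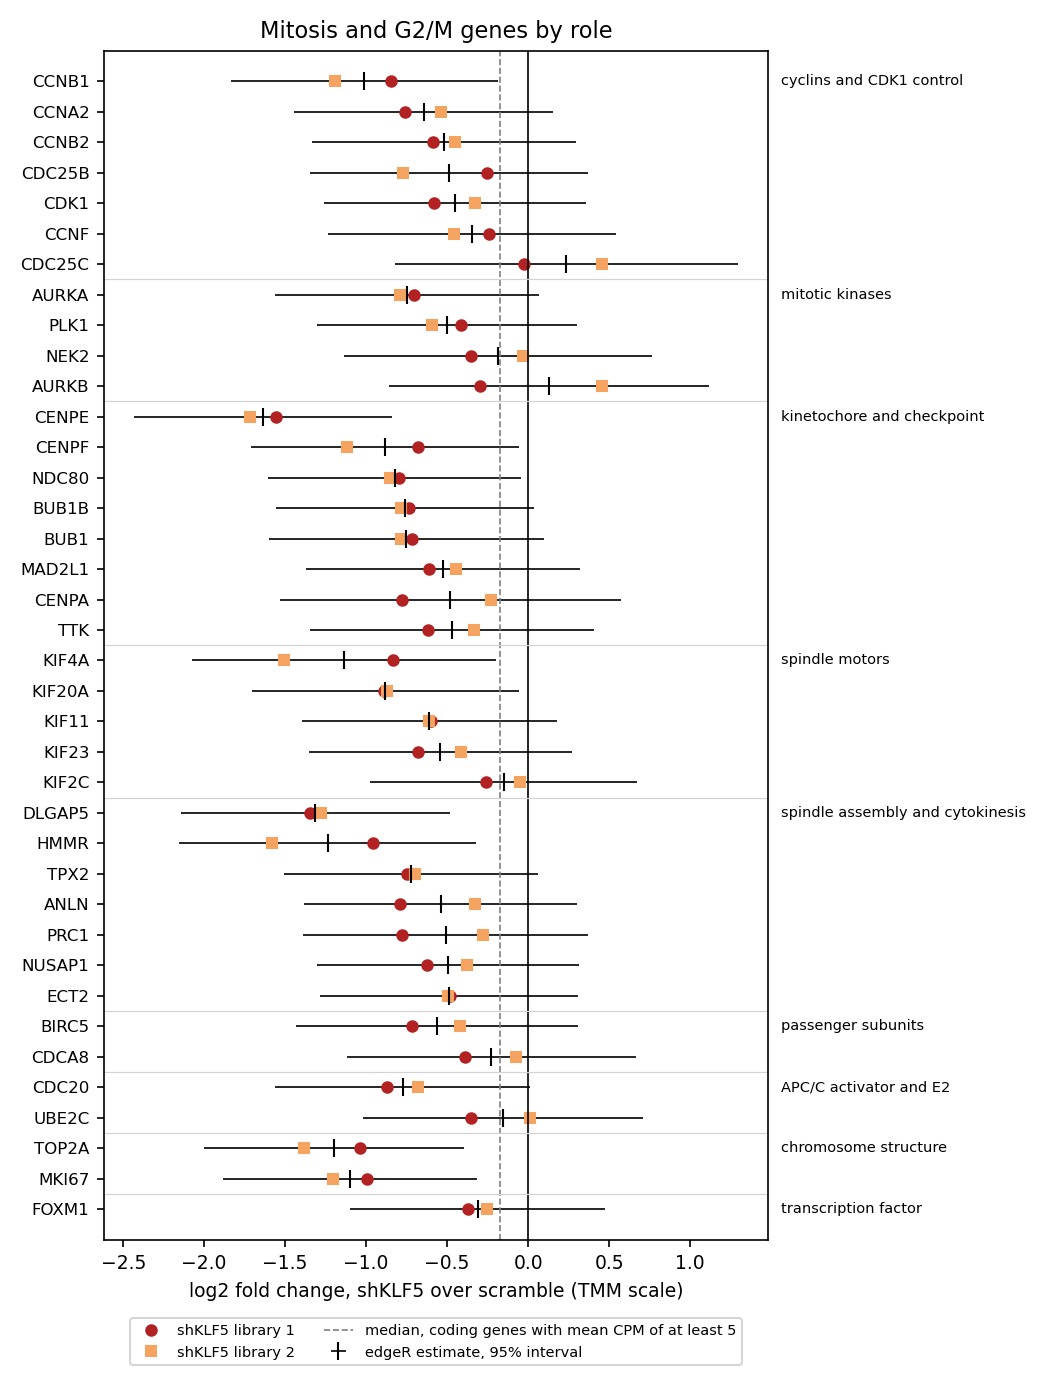
Log2 fold change of each of the 38 genes by role, shKLF5 over scramble after TMM, for library 1 (circles), library 2 (squares) and the edgeR estimate with its 95% confidence interval (line and tick). Most points lie left of 0 and of the dashed line at -0.17, the median of abundant protein-coding genes, while CDC25C, AURKB and UBE2C have a library on each side of 0.

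The promoters of these genes carry the elements named above, which were searched for in the RefSeq windows from 250 bases before to 50 bases after each start (GRCh38.p14). A window was held for 32 of the 38 genes, and AURKA, BIRC5, FOXM1, TPX2, TTK and UBE2C were not analysed here in this respect. The CHR element, TTTGAA or TTCGAA on either strand, was found in 25 of the 32 windows (78.1%, exact 95% interval 60.0 to 90.7) and in 16.4% of all 35116 promoter windows. CCAAT on either strand was found in 27 of 32 (84.4%, exact interval 67.2 to 94.7) against 34.6% of all windows, and both elements together in 22 of 32 (68.8%) against 6.38%. Of the 37 CHR matches, 30 began within 100 bases of the start. An E2F element (TTCCCGC or TTCGCGC, and also TTGCCGC or TTGGCGC, on either strand) was found in 21.9% of the 32 windows and 13.0% of all. CCNCNCCC, a GC-rich pattern of the kind KLF factors bind, was in 65.6% (exact interval 46.8 to 81.4) and in 56.2% of all windows.

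The 130 bases just before the start are printed below for genes with both elements, chosen to show their usual layout. They are also printed for KIF2C and CENPE, which had no match to the searched CHR and CCAAT patterns in the window. Other spellings of the elements were not searched for. KIF2C and CENPE stand near opposite ends of the fold changes. Capitals mark the CHR element (TTTGAA, or TTCAAA on the other strand) and the CCAAT box (CCAAT, or ATTGG on the other strand), and all are written 5′ to 3′ in the direction of transcription.
CCNB2, chr15:59105016-59105145, plus strand: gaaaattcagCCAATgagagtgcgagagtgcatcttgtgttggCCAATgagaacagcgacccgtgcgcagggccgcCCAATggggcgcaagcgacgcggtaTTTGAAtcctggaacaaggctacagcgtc
CDC20, chr1:43358851-43358980, plus strand: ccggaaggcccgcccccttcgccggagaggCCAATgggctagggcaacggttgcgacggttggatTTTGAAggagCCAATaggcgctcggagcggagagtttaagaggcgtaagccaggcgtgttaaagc
PLK1, chr16:23678759-23678888, plus strand: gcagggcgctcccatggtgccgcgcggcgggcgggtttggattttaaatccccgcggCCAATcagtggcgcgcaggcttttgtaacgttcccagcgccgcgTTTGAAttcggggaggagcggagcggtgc
HMMR, chr5:163460502-163460631, plus strand: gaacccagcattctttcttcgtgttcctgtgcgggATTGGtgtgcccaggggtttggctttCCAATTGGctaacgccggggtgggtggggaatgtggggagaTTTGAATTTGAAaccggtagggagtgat
KIF4A, chrX:70289974-70290103, plus strand: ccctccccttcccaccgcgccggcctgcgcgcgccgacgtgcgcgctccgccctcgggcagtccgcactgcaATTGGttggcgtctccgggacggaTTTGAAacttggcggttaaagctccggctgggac
KIF11, chr10:92593000-92593129, plus strand: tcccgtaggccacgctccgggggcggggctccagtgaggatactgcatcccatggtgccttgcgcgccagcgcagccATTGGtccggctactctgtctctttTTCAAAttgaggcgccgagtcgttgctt
MKI67, chr10:128126424-128126553, minus strand: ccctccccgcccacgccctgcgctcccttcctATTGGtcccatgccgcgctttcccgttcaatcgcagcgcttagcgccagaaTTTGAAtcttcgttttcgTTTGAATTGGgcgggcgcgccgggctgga
KIF2C, chr1:44739707-44739836, plus strand: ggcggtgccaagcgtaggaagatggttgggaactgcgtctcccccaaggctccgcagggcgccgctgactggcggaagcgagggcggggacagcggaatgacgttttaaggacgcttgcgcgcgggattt
CENPE, chr4:103198344-103198473, minus strand: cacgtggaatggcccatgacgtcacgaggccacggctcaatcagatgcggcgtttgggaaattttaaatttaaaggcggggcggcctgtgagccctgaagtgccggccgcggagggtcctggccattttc

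In CCNB2 the 3 CCAAT boxes shown begin 120, 87 and 54 bases before the start and the CHR element 29 bases before it. PLK1 had its CHR element at the same distance, KIF4A at 34 and KIF11 at 28 bases before the start, each with a CCAAT box upstream of it. These distances count from the RefSeq start. Over the 32 genes that start lay up to 332 bases (median 47) from the start of the leading transcript, and 156 bases for KIF11. In HMMR a pair of CHR matches stand end to end. In MKI67 a CHR match runs into a CCAAT box on the other strand. Genes with and without a CHR match had similar fold changes by value. The 25 genes with a CHR match had a median log2 fold change of -0.54, from -1.31 to 0.24, and the 7 without one had -0.65, from -1.64 to 0.13.

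**Figure D3:**
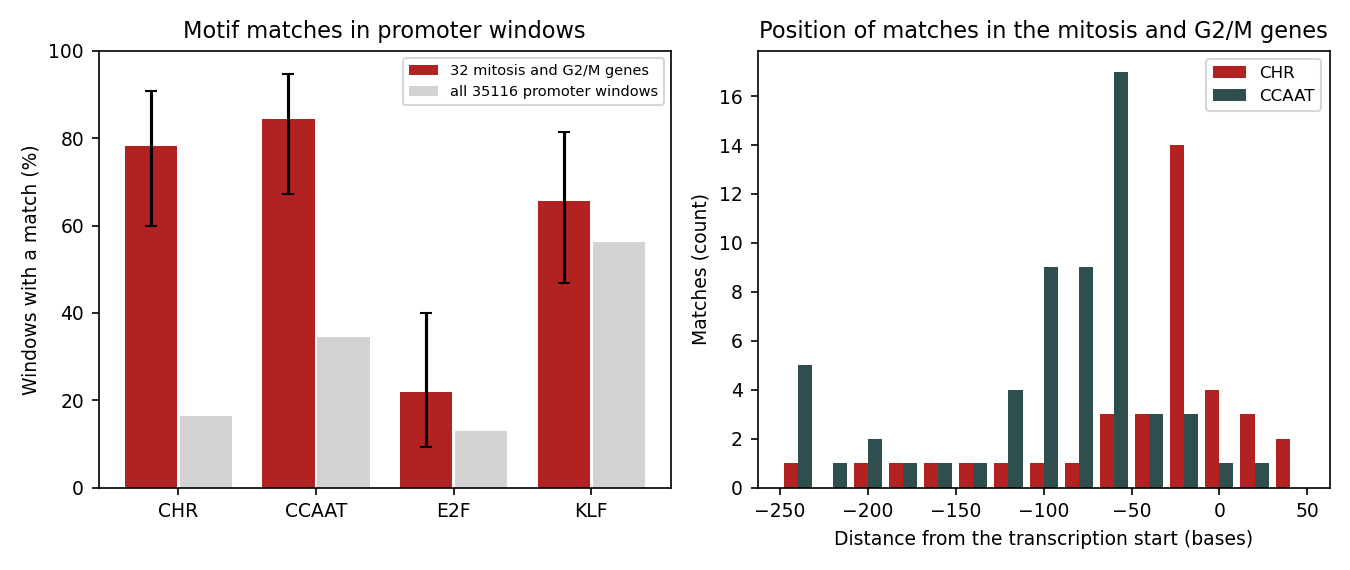
Left, percent of promoter windows with at least 1 match to each motif, in 32 mitosis and G2/M genes (with exact 95% interval) and in all 35116 windows. Right, distance of each CHR and CCAAT match from the start in the 32 genes, in bases, counted in bins, where CHR matches gather just before the start and CCAAT boxes upstream of them.

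Levels between genes can be compared per length, on the TPM scale. In scramble CDC20, the APC/C activator, stood highest with 96.2 TPM, followed by ANLN at 89.9 TPM and CDC25B at 74.2 TPM. CCNB1 at 68.9 TPM and CDK1 at 68.6 TPM were level with each other. The lowest were CDC25C at 5.52 TPM, CCNF at 6.17 TPM and NEK2 at 9.08 TPM. The median of the 38 genes was 24.8 and 23.65 TPM in shKLF5 libraries 1 and 2, against 29.1 TPM in scramble. Their summed TPM was 1244 and 1277, against 1366 in scramble. The place of a gene in this order has a measured value in 1 scramble library only, so neighbours cannot be ranked beyond error.

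**Figure D4:**
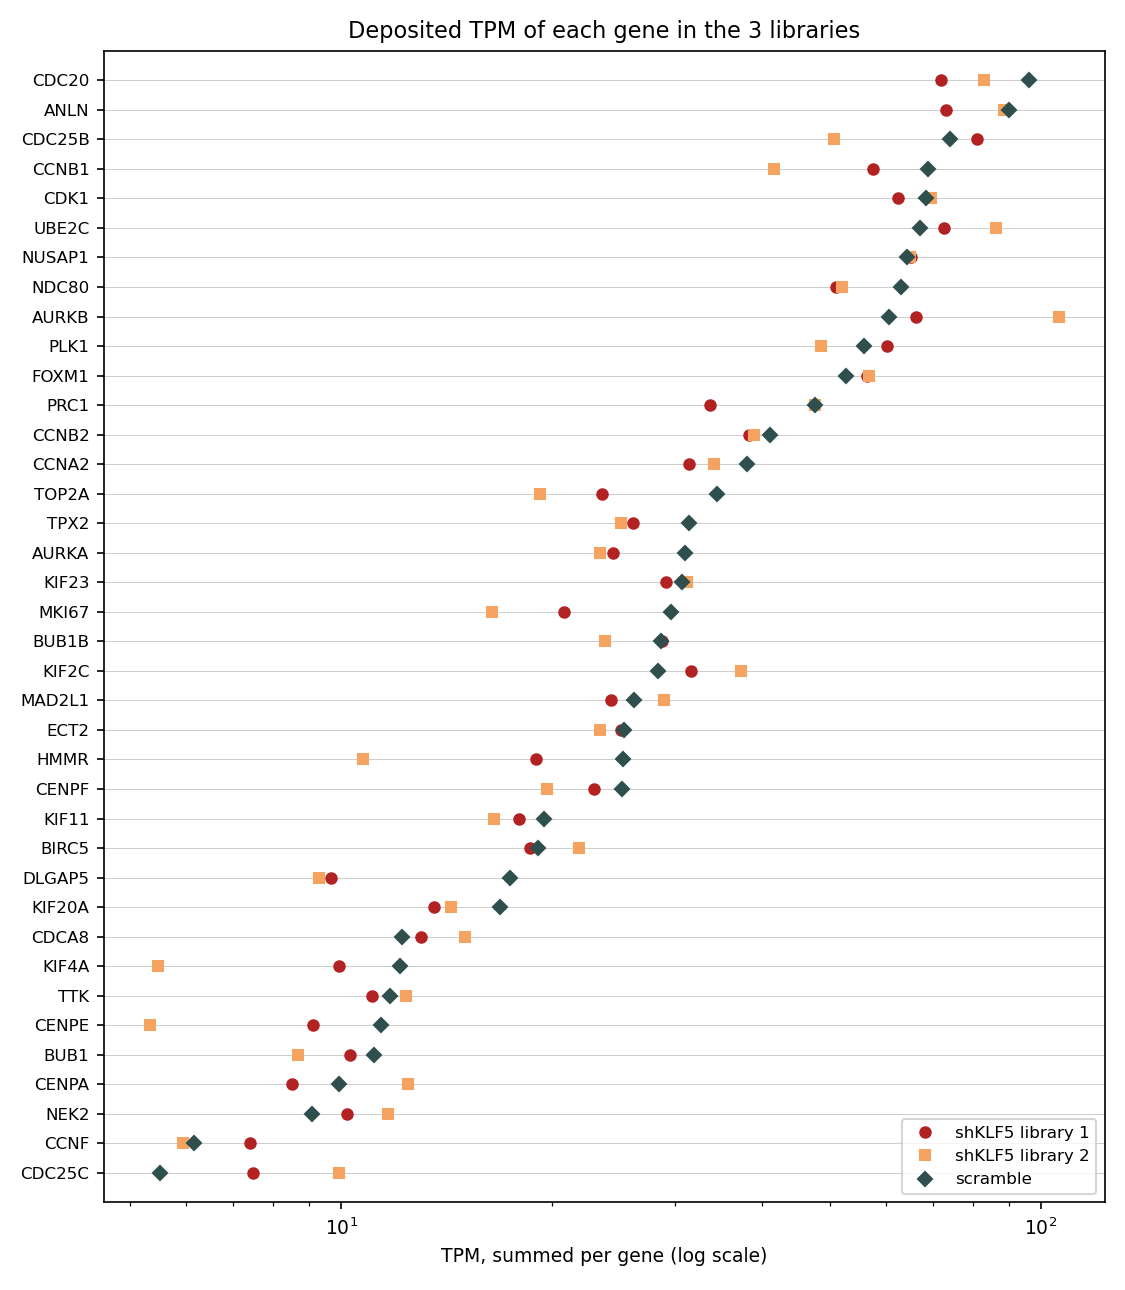
Deposited TPM of each gene, summed over its transcripts, in shKLF5 library 1 (circles), shKLF5 library 2 (squares) and scramble (diamonds), ordered by the scramble level on a log axis. CDC20 is highest and CDC25C lowest in scramble, and on this scale AURKB in shKLF5 library 2 reaches 106 TPM, against 60.7 TPM in scramble.

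Among the cyclins and the control of CDK1, cyclin B1 had the lowest log2 fold change, and its difference from cyclin B2 was not tested. CCNB1, the cyclin that carries CDK1 into mitosis, had 57.3 and 45.0 CPM in shKLF5 libraries 1 and 2, against 103 CPM in scramble. Both shKLF5 values lie below the scramble value. The log2 fold change was -1.01, with an SE of 0.36 (95% confidence interval -1.83 to -0.19, edgeR adjusted p = 0.476). CCNB2, the related cyclin of the Golgi-associated pool, had 43.6 and 47.8 CPM, against 65.4 CPM in scramble, with a log2 fold change of -0.52 (SE 0.35). CDK1 itself had 74.1 and 88.5 CPM in the shKLF5 libraries, against 111 CPM in scramble, a log2 fold change of -0.45 (SE 0.35). CDK1 is the shared catalytic subunit of the A and B cyclins. CCNA2, cyclin A of S and G2 phase, stood at -0.65, and CCNF, the F-box cyclin of an ubiquitin ligase, at -0.35.

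The CDC25 phosphatases, which strip the inhibitory phosphates from CDK1, differed in direction. CDC25B had 170.8 and 119 CPM in the shKLF5 libraries, against 204 CPM in scramble. CDC25C had 9.80 and 13.7 CPM, against 9.97 CPM in scramble, so that library 1 lay at the scramble level and library 2 above it. The log2 fold change of CDC25C was 0.24 (SE 0.46, 95% confidence interval -0.82 to 1.30). CDC25C overlaps FAM53C on the opposite strand, and the use of strand in the counting is not given in the sources used here. FAM53C had 3444 and 5725 counts in the shKLF5 libraries, against 1586 in scramble, and its part in the CDC25C values was not tested.

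Among the mitotic kinases, Aurora A was lower by value in both libraries and Aurora B was not. AURKA, the kinase of centrosomes and spindle poles, had 38.04 and 35.8 CPM in shKLF5 libraries 1 and 2, against 62.1 CPM in scramble (log2 fold change -0.75, SE 0.35, edgeR adjusted p = 0.565). AURKB, the kinase of the chromosomal passenger complex at centromeres and midzone, had 42.2 and 71.4 CPM, against 52.0 CPM in scramble, with a shKLF5 library on each side of it (log2 fold change 0.13, SE 0.43). In AURKB 69.0% and 70.2% of counts in the shKLF5 libraries and 68.4% in scramble were on protein-coding transcripts. AURKAP1, a processed copy of AURKA, held 67 and 153 counts, against 22 in scramble, so a small part of the AURKA reads may have been divided with it. PLK1, the polo kinase of mitotic entry, had 72.9 and 64.3 CPM, against 97.1 CPM in scramble, and stood at -0.50. NEK2, which releases the tie between centrosomes, had 14.5 and 18.1 CPM, against 18.5 CPM, and stood at -0.19.

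The kinetochore and checkpoint genes were all lower by value in both libraries. CENPE, a kinesin that carries chromosomes to the spindle equator from the kinetochore, had 36.1 and 32.4 CPM in shKLF5 libraries 1 and 2, against 106.5 CPM in scramble. Both shKLF5 values are close together and far below scramble. The log2 fold change was -1.64, with an SE of 0.34 (95% confidence interval -2.43 to -0.84), and its edgeR adjusted p of 0.359 was the smallest of the 38. Per length it held 9.12 and 5.32 TPM, against 11.4 TPM in scramble. CENPF, a large protein of the outer kinetochore, had 161 and 119 CPM, against 258 CPM in scramble (-0.88, SE 0.36). NDC80, the microtubule anchor of the kinetochore, had 75.4 and 72.6 CPM, against 131 CPM in scramble (-0.82, SE 0.34).

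The checkpoint kinases BUB1 and TTK and the pseudokinase BUBR1, encoded by BUB1B, are recruited to unattached kinetochores, where MAD2 (MAD2L1) is turned into an inhibitor of CDC20. BUB1 had 24.0 and 22.9 CPM in the shKLF5 libraries, against 39.5 CPM in scramble (-0.75), and BUB1B had 50.15 and 48.6 CPM, against 83.7 CPM (-0.76). For these genes the gap between the shKLF5 libraries was far smaller than their distance from scramble. MAD2L1 stood at -0.53 and CENPA, the histone variant that marks centromeres, at -0.48. CENPA overlaps SLC35F6 on the same strand, which had 1597 and 1579 counts in the shKLF5 libraries, against 915 in scramble. TTK, also called MPS1, was nearest to scramble of the 8, with 23.7 and 28.8 CPM, against 36.4 CPM in scramble (-0.47, SE 0.38).

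Of the 5 spindle motors, the chromokinesin KIF4A had the lowest log2 fold change and the depolymerase KIF2C the highest. KIF4A, which shortens midzone microtubules with PRC1, had 32.7 and 20.5 CPM in shKLF5 libraries 1 and 2, against 58.5 CPM in scramble (-1.14, SE 0.41, edgeR adjusted p = 0.476). The retrocopy KIF4B was listed with 1 and 1 counts, and 0 in scramble, and PDZD11, which overlaps KIF4A on the opposite strand, with 989 and 752 counts, against 692 in scramble. KIF20A, a motor of cytokinesis, had 28.4 and 28.8 CPM, against 52.8 CPM in scramble (-0.88, SE 0.36). KIF11, which pushes spindle poles apart, stood at -0.61 and KIF23, of the centralspindlin complex, at -0.54. KIF2C had 56.5 and 65.1 CPM in the shKLF5 libraries, against 67.5 CPM in scramble, a log2 fold change of -0.15 (SE 0.36).

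Among the genes of spindle assembly and cytokinesis, DLGAP5 and HMMR had the lowest log2 fold changes. DLGAP5, which stabilises kinetochore fibres, had 21.5 and 22.6 CPM in shKLF5 libraries 1 and 2, against 54.8 CPM in scramble, so the shKLF5 libraries lay together well below it. The log2 fold change was -1.31, with an SE of 0.36 (95% confidence interval -2.14 to -0.48, edgeR adjusted p = 0.474). HMMR, a microtubule-associated protein of spindle poles, had 34.8 and 22.5 CPM, against 67.6 CPM in scramble (-1.24, SE 0.40). TPX2, the activator of Aurora A, stood at -0.72, ANLN, the anillin scaffold of the cleavage furrow, at -0.54, PRC1, which bundles midzone microtubules, at -0.51, and NUSAP1 at -0.50. ECT2, the exchange factor that activates RhoA at the division site, was nearest to scramble of the 7, with 61.6 and 61.1 CPM, against 86.1 CPM in scramble (-0.49, SE 0.34).

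The remaining genes split between large and small differences. TOP2A, the topoisomerase that untangles sister chromatids, had 101.5 and 79.8 CPM in the shKLF5 libraries, against 208 CPM in scramble (-1.20, SE 0.35, 95% confidence interval -2.003 to -0.40). MKI67, which coats mitotic chromosomes and is the antigen of the Ki-67 stain, had 197 and 170 CPM, against 392 CPM in scramble (-1.10, SE 0.34). For both genes the shKLF5 libraries lay well below scramble. CDC20 had 85.5 and 97.35 CPM, against 156 CPM in scramble (-0.77, SE 0.34). UBE2C, the ubiquitin-conjugating enzyme of the APC/C, had 39.7 and 51.1 CPM, against 50.6 CPM in scramble, and stood at -0.16. The passenger subunits BIRC5 (survivin) and CDCA8 (borealin) stood at -0.56 and -0.23. FOXM1, the transcription factor that activates many of the genes above, had 130 and 141 CPM, against 168 CPM in scramble (-0.31, SE 0.34), and its raw counts were 4660 and 4903, against 4469 in scramble.

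By role, the kinetochore and checkpoint group had a median log2 fold change of -0.76 (8 genes, 8 lower in both), the spindle motors -0.61 (5 genes, 5 lower in both) and the cyclins, CDK1 control and mitotic kinases together -0.49 (11 genes, 9 lower in both). All genes tested had a median of 0.04, with 36.5% lower in both. The abundant protein-coding genes had a median of -0.17, with 51.8% lower in both. In library 1 the medians of the kinetochore, motor and cyclin and kinase groups were -0.73, -0.68 and -0.41, and in library 2 -0.78, -0.61 and -0.46. The ranges overlapped, with -1.64 to -0.47 for kinetochore genes, -1.14 to -0.15 for motors and -1.01 to 0.24 for cyclins and kinases. CENPE, also a kinesin, was counted only with the kinetochore genes. The gap between the kinetochore and motor medians depends on that placement. The difference between the groups was not tested. The count with an unadjusted p under 0.05 by edgeR was 3 of 8, 2 of 5 and 1 of 11, in that order. At that p 3.5% of all genes tested were lower, and 528 of the 10376 abundant protein-coding genes. Over the 38 genes the count was 10, but 2 with library size alone and 0 by limma on log2(TPM + 1).

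The shKLF5 libraries agreed closely for some genes and not for others. Library 2 was lower than library 1 for 16 genes and higher for 22, and the gap was over 0.5 on the log2 scale for 5 genes, which were CDC25B, AURKB, CENPA, KIF4A and HMMR. AURKB stood at -0.30 in library 1 and 0.46 in library 2, while KIF4A stood at -0.84 and -1.51. At the other end KIF20A stood at -0.89 and -0.87, ECT2 at -0.48 and -0.49 and KIF11 at -0.60 and -0.61. A log2 fold change at or below -1 in both libraries was found for 3 genes (CENPE, DLGAP5 and TOP2A), where 2.24% of all genes tested reached it.

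Within the set, longer transcripts went with lower fold changes. Transcript length here is the mean over a gene's transcripts weighted by counts. The 8 genes over 4000 bases, from CENPE at -1.64 to CCNF at -0.35, had a median log2 fold change of -0.99, the 22 genes between 2000 and 4000 bases -0.53 and the 8 genes under 2000 bases -0.47. The short genes ranged widely, from CCNB1 at -1.01 and CDC20 at -0.77 to AURKB at 0.13 and CDC25C at 0.24. Across the 38 genes Spearman's rho between length and fold change was -0.47 (Pearson's r with log10 length -0.56), and without the 3 genes of 8000 bases or more it was -0.36. It was -0.30 in library 1 and -0.53 in library 2. Across the 10376 abundant protein-coding genes rho was 0.02, and their medians in the same length bins were -0.16 (over 4000 bases), -0.16 (2000 to 4000 bases) and -0.19 (under 2000 bases). These relations are across genes that share the same 3 libraries, so they are descriptions, and they were noticed in these data.

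**Figure D5:**
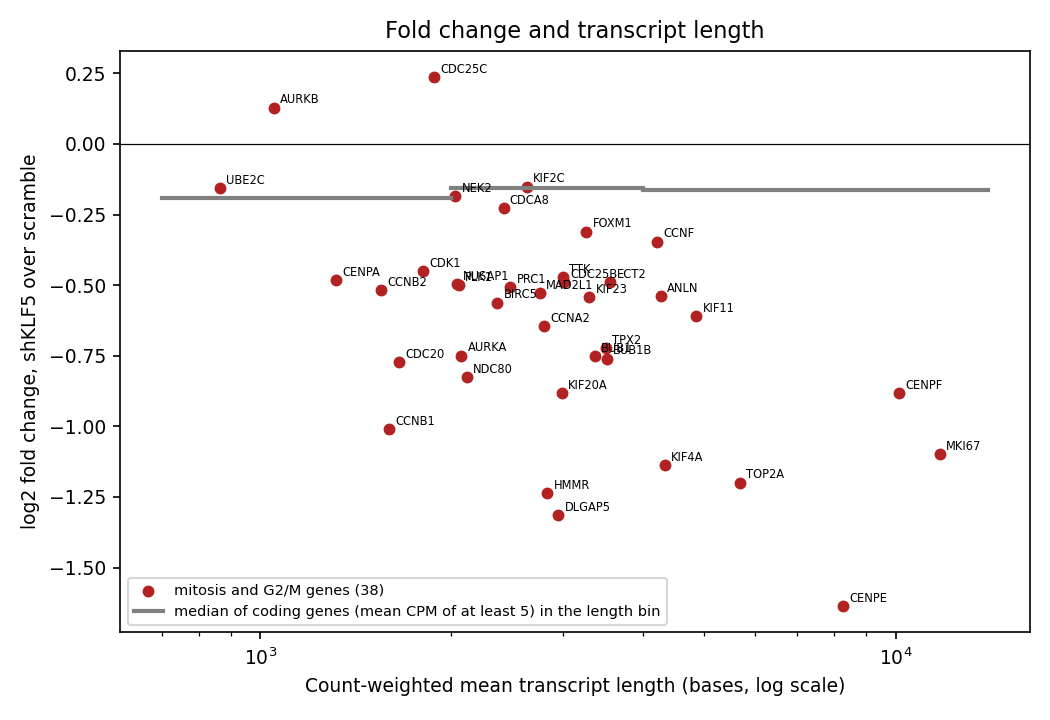
Log2 fold change of each of the 38 genes, shKLF5 over scramble, against count-weighted mean transcript length in bases on a log axis. Grey lines give the median of abundant protein-coding genes in 3 length bins, which lie between -0.19 and -0.16, while the genes over 4000 bases lie lower than the shorter ones on the whole.

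Most genes kept their leading transcript across libraries. The leading transcript was the same in all libraries for 35 of the 38 genes and was protein-coding for 37. The exception was MAD2L1, whose leading transcript is annotated as a target of nonsense-mediated decay (561 and 606 counts in shKLF5 libraries 1 and 2, against 687 in scramble). In 10 genes, CENPF, TOP2A, KIF11 and TPX2 among them, the leading transcript held over 90% of counts in every library. No transcript (0 of 257 with a count) moved by 10 points or more of its gene's counts in the same direction in both shKLF5 libraries. Shares 10 points or more apart between the shKLF5 libraries were found for 18 transcripts of 9 genes. The matching shares over all genes are not reported here, so these counts do not set the mitotic genes apart from others. HMMR-202 held 27.25% and 71.4% of HMMR counts in the shKLF5 libraries, against 40.1% in scramble, and HMMR-203 held 41.2% and 8.42%, against 42.8%. The decay-annotated CCNF-201 held 3.01% and 39.3% of CCNF counts, against 20.1% in scramble. Kallisto divides reads among transcripts that share exons, so such shares are estimates, and they also enter the TPM through length.

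Other genes of the same machinery, listed by function, are set beside 51.8% lower in both and a median of -0.17 among abundant protein-coding genes. Of 40 further kinetochore and centromere genes 27 were lower in both shKLF5 libraries, 1 was higher in both and 12 lay on either side of scramble, and their median log2 fold change was -0.39. SGO2, a shugoshin that guards centromeric cohesion, stood at -1.14 (SE 0.43). Of 10 further kinesins 9 lay below scramble in both (median -0.43), among them KIF14 at -0.74 and KIFC1 at -0.71. Of 19 condensin, cohesin and separase genes 16 lay below it in both (median -0.52), among them SMC2, the core ATPase of condensin, at -0.95 (SE 0.35) and STAG1, a cohesin subunit, at -0.97 (SE 0.43). Of 24 measured genes of cytokinesis and the centrosome 16 did so (median -0.49). PBK, a mitotic kinase, had 1075 and 817 counts in the shKLF5 libraries, against 1848 in scramble (-1.38, SE 0.37), and ASPM, the spindle pole protein of microcephaly, stood at -0.94. The matching list of DNA replication and the G1/S transition had a median of -0.64, with 24 of 26 measured genes lower in both, and the difference from the mitotic genes was not tested. None of the genes in these lists passed edgeR's test across all genes.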

How the data were processed

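RNA-seq tables were available for 3 libraries, grouped by the labels as shKLF5 (2) and scramble (1). The submitters' processing notes list kallisto, DESeq2 and the build hg19, with no version. Per the file headers, the tables hold kallisto's estimated count of each transcript, deposited without normalisation. The TPM column, also deposited, corrects for length and gives every library an equal total. Transcript lengths in bases came from the other deposited columns. Which transcript set was indexed, and whether strand was used, is not given in the sources used here.

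Of 196354 transcripts 181857 (92.6%) were matched by identifier to GENCODE 29, and 281 of the 295 transcripts of the mitotic genes had the same length there. Unmatched transcripts held 3.42% and 3.4% of counts in the shKLF5 libraries and 3.05% in scramble. Counts were summed over 52992 genes and rounded. The test was edgeR 4.0.16 in R 4.3.3 (filterByExpr, TMM, the current quasi-likelihood F test). P-values were adjusted by Benjamini-Hochberg over 20629 genes, and 1 residual degree of freedom was left. Each SE is the estimate over the root of F. Single-library fold changes, with a prior count of 2, have no test. The code was tested on simulated data. Intervals cover counting error and the spread of these libraries, and reads had no molecular identifiers.

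The genes and lists were chosen with earlier results of these data known. Every one of the 38 genes was named, and from each other list up to 2 with the smallest p (1 is not reported here), beside MYBL2, E2F7 and CDKN1A, chosen after their values were seen, and those with values in each library followed a rule on role and size of change. Alternatives were other scalings, filters, DESeq2 1.42.0, limma 3.58.1 on log2(TPM + 1) or after cyclic loess, coding transcripts alone and each shKLF5 library left out. The median of all genes as zero point was chosen after seeing the data. Promoters are RefSeq windows (GRCh38.p14) at the listed start nearest the leading transcript.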

Additional observations from a re-analysis of the deposited data

How the results depend on the processing

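No paired analysis was possible because scramble has 1 library and no number. The number of mitotic genes passing the adjusted test was 0 under all alternatives run with a test. Over all genes DESeq2 called 116 (64 higher, 52 lower) and edgeR's legacy fit 21 (5 higher, 16 lower). The count of mitotic genes with an unadjusted p under 0.05 and lower, 10 as reported, was 2 with library size alone. It was 4 with nuclear library size, 5 with a mean CPM of at least 5 and 0 with limma on log2(TPM + 1). After cyclic loess it was 4, with DESeq2 7 and on coding transcripts 7. The matching shares of all genes at that p are not reported here. The count lower in both libraries, 35 as reported, was 20 with library size alone, where 12.5% of all genes tested were. On log2(TPM + 1) it was 20, where 11.3% of all genes tested were. It was 24 with nuclear library size, 29 after cyclic loess, 31 on coding transcripts and 32 with a mean CPM of at least 5. The shares of all genes beside these last counts are not reported here, so they cannot be weighed against the 35. With 1 shKLF5 library left out, the count lower in the remaining library ran from 35 to 38. That criterion is looser, so it is no check on the 35.

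The median log2 fold change of the 38 genes was -0.11 with library size alone, -0.22 with nuclear library size, -0.36 with a mean CPM of at least 5, -0.14 on log2(TPM + 1) and -0.37 after cyclic loess, and ran from -0.69 to -0.52 with 1 shKLF5 library left out. Less the median of all genes it was -0.58 as reported, -0.91 with no filter, -0.38 with a mean CPM of at least 5, -0.47 on coding transcripts, -0.41 on log2(TPM + 1), -0.36 after cyclic loess and -0.69 to -0.55 with a library left out. In the same order the cyclins and kinases (-0.53 as reported) gave -0.86, -0.33, -0.38, -0.32, -0.22 and -0.49 to -0.41. Kinetochore genes (-0.80) gave -1.13, -0.60, -0.71, -0.44, -0.56 and -0.81 to -0.72. Spindle motors (-0.65) gave -0.98, -0.45, -0.51, -0.43, -0.37 and -0.68 to -0.65. With no filter the median of all genes was 0.33. The cause of the other shifts was not tested.

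Set against the median of all genes, 34 of the 38 genes had the reported direction under all 12 alternatives. The exceptions were CDC25C (-0.14 with no filter, -0.022 to 0.425 with a library left out), AURKB (-0.24 and -0.297 to 0.427 likewise), KIF2C (0.00872 with a mean CPM of at least 5, 0.0676 after cyclic loess) and UBE2C (0.00362 and 0.0322 likewise). The median share on the leading transcript was 64.2% by TPM, against 75.5% by counts. In the window from 100 bases before the start, an E2F match was found in 6.25% and CCNCNCCC in 34.4% of the mitotic genes, beside 7.20% and 42.0% of all windows, while CHR and CCAAT stood at 75.0% and 71.9%, beside 7.37% and 21.3%.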

Other observations

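Among the 10376 abundant protein-coding genes 51.8% were lower in both shKLF5 libraries and 2344 genes were higher in both. Of 21 genes of the DREAM and MYB-MuvB complexes with their E2F and NF-Y partners, 14 lay below scramble in the shKLF5 pair and 3 above it in both, and the median log2 fold change was -0.40. TFDP1, the partner of E2F factors, had 2382 and 1120 counts in the shKLF5 libraries, against 2889 in scramble (-1.14, SE 0.46), and RB1 stood at -0.70. MYBL2, which encodes B-MYB and was chosen after its values were seen, stood at -0.19 (SE 0.36). E2F7, an E2F repressor chosen in the same way, had 3005 and 4444 counts, against 1638 in scramble (0.78, SE 0.41). Of 17 genes of the APC/C and its partners, 11 lay below scramble in both and 3 above it (median -0.29), among them CDC27 at -0.9975 (SE 0.42) and ANAPC4 at -0.65 (SE 0.42).

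Regulators of cyclin-dependent kinases split in direction, as abundant protein-coding genes did. Of 14 such genes 8 lay below scramble in both and 5 above it (median -0.23). Of the 10376 abundant protein-coding genes, 5373 lay below it in both and 2344 above it (median -0.17). CCNE2, a cyclin of the G1/S transition, had 308 and 160 counts in the shKLF5 libraries, against 386 in scramble (-1.14, SE 0.50), and CDKN3, a phosphatase of CDK1, stood at -0.86 (SE 0.40). CDKN1A, the CDK inhibitor p21, picked once its values were known, had 6451 and 4718 counts, against 2843 in scramble (0.56, SE 0.37). None of these genes passed edgeR's test across all genes.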
